A study of Homo sapiens with 6 samples.

Results

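The genes described here are SHARPIN, RNF31 and RBCK1, the 3 subunits of the linear ubiquitin chain assembly complex (LUBAC), with OTULIN and CYLD, which take linear chains apart, and TNIP1 and IKBKG, which bind them. They were taken by gene name, as every transcript row of these 7 genes, among 31768 genes with 153848 transcript rows in all. The 7 genes hold 96 transcript rows. The filter on low counts kept all 7 genes, among 11118 genes kept, and 67 of the 96 transcripts, among 74843.

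Linear ubiquitin is a chain in which ubiquitin molecules are joined head to tail. RNF31 (also called HOIP) is the catalytic subunit that joins them, RBCK1 (HOIL) carries a second ligase domain and SHARPIN is an adaptor, and loss of any of them weakens signaling from TNF receptors and other immune receptors. The chains are laid on receptor complexes and on IKBKG (NEMO), the regulatory subunit of the IKK kinase, which binds them and sets NF-kappaB signaling in motion. OTULIN cleaves linear chains and CYLD cleaves linear and other chains, and TNIP1 (ABIN) binds linear chains together with the editing enzyme TNFAIP3 and restrains the signal. In microglia these receptors pass on inflammatory and danger signals.

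HMC3 cells are human microglia made immortal in culture, and no gene was altered in them here. RNA came from 3 control cultures (0 Gy) and 3 cultures exposed to 15 Gy of X-rays, each an independent culture collected after 24 h, and was read as amplified full-length cDNA by Oxford Nanopore sequencing. The deposited counts per transcript sum to between 4870897 and 9082409 in the 6 libraries. Levels are given as CPM, the counts scaled to an equal library size with edgeR's TMM factors, and all changes are irradiated over control.

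The labelled cell type was checked on 15 microglial and macrophage markers. Of these, 12 were under 2 CPM in every library, and 6 of them, among them P2RY12, TMEM119 and CX3CR1, had no count, while CD68 was at 10 CPM or more in every library. The summed marker level was between 85.1 and 108.1 CPM in controls and between 115.0 and 132.1 in irradiated libraries. The summed level of 15 fibroblast and pericyte markers, led by FN1, was between 6939 and 8433 CPM in controls and between 8373 and 9081 in irradiated libraries. The part of these levels in the results was not tested. Since cells were measured in bulk, fewer cells that express a gene and less RNA per cell cannot be told apart.

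The sequences below show where transcript models of RBCK1 and TNIP1 part from each other. RBCK1 lies on chromosome 20 of GRCh38 from 407498 to 430966 on the plus strand (GENCODE release 29). After exon 2 (last bases chr20:410011-410025) the short coding model ENST00000475269 goes on to a terminal exon that starts at chr20:410412-410426, and the full-length coding model ENST00000356286 goes on to chr20:417526-417540. Lower case marks the last 15 bases of exon 2 and capitals mark the first 15 bases of exon 3, 5′ to 3′.
RBCK1 short model: aacgcaggacatcagATTCCTCATGGTGCA
RBCK1 full model: aacgcaggacatcagGCTGTGGGTGAGCGT

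TNIP1 lies on chromosome 5 from 151029945 to 151093577 on the minus strand. Its last exon is joined from 2 splice sites that lie 74 bases apart. In both lines lower case is the end of exon 17 (chr5:151032287-151032301), and capitals are the start of exon 18, at chr5:151030733-151030747 for the near site and at chr5:151030659-151030673 for the far site.
TNIP1 near splice site (ENST00000521591): ggcctacagaaccagAGTCTCCAAAAAATG
TNIP1 far splice site (ENST00000518977): ggcctacagaaccagAGCCAGCTGATCTCA

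TNIP1 is itself known as a gene that NF-kappaB switches on, so the RefSeq promoters of the members (GRCh38.p14) were searched for the NF-kappaB consensus motif of 10 bases on both strands, over the 250 bases before each start. SHARPIN had no promoter in this set and was not searched. The windows of TNIP1 did not include its outer start (chr5:151087158 in ENST00000315050). The motif was found in 5.21% of 35116 windows of 250 bases of all genes and in 2 of 13 windows of 6 members. It lay 42 bases before the start in TNIP1, at chr5:151081035-151081284 on the minus strand, shown with the motif in capitals.
TNIP1 promoter: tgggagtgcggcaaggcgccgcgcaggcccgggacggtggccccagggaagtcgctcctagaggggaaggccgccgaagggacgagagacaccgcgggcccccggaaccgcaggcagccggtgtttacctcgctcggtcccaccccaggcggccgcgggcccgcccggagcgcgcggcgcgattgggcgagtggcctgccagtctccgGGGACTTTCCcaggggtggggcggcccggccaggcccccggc
The other match, GGAAAGTCCC on the reverse strand, lay 189 bases before a start of CYLD in the window chr16:50741836-50742085. Such a match is a description of letters, and binding was not measured.

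**Figure D1:**
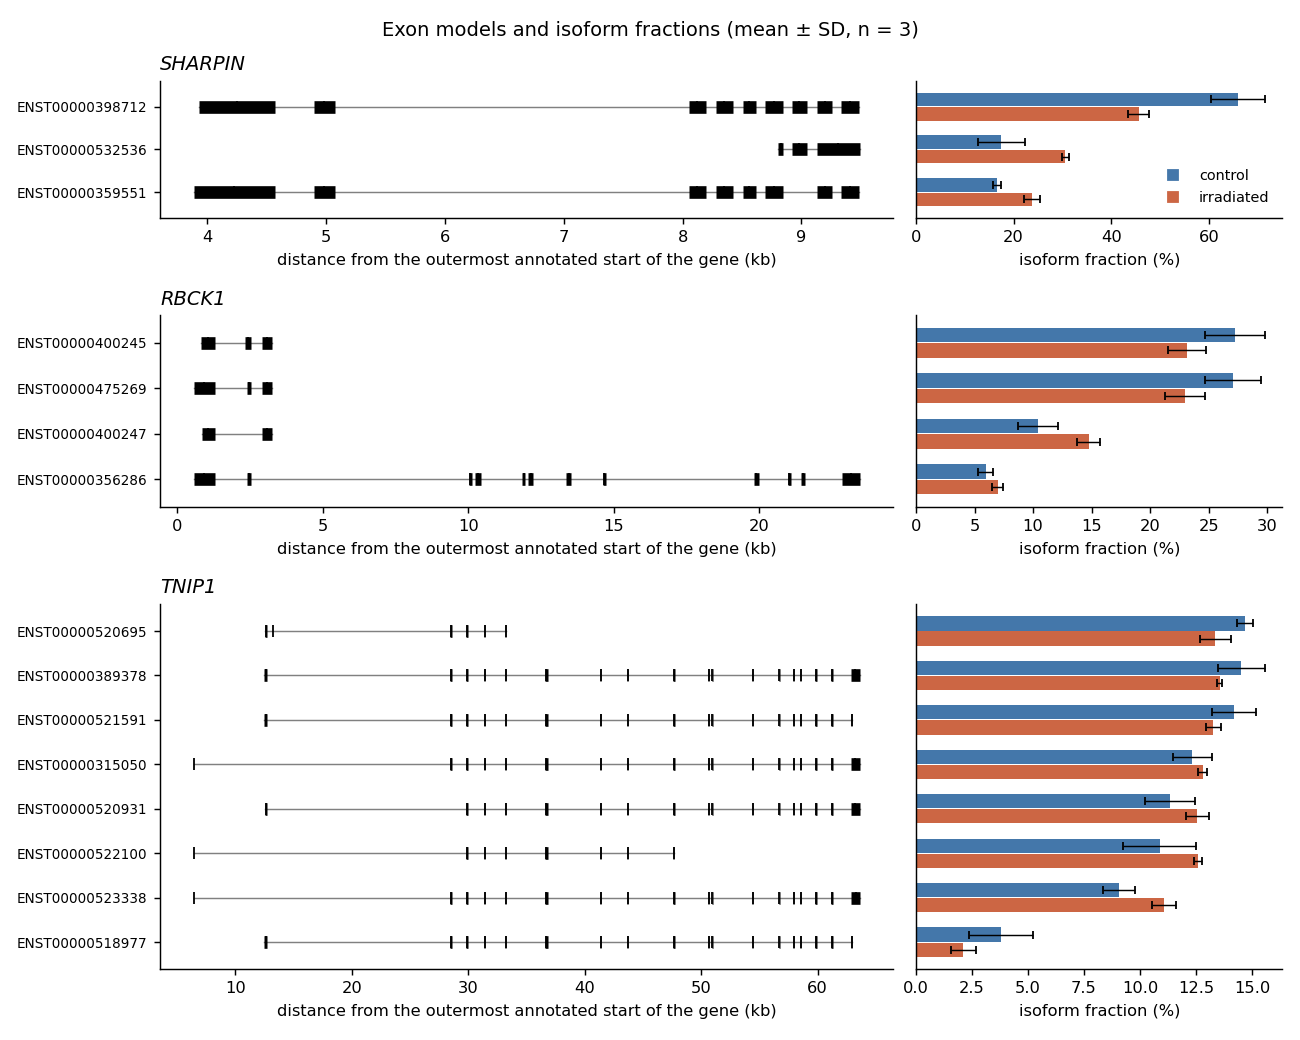
Exon models (left, black blocks, as distance in kb from the outermost annotated start of the gene) and isoform fractions (right, percent of the gene's kept counts, mean and SD over 3 cultures) of abundant transcripts of SHARPIN, RBCK1 and TNIP1. In SHARPIN the 9-exon model fell from 65.9% to 45.6% of counts in the group means without passing the usage test, and in RBCK1 the 3 models with the largest fractions end in the first part of the gene.

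All 7 genes had a log2 fold change above 0, which 54.8% of all genes tested had. At an adjusted p under 0.05, 1 of the 7 genes was higher, against 11.6% of all genes, and none of the 7 also passed an absolute log2 fold change of 1, which 5.7% of all genes did (0 of 7 also with DESeq2 and at an unadjusted p). In 3 of the 7 genes (OTULIN, CYLD and TNIP1) every irradiated library lay above every control library, which held for 21.5% of all genes. The median log2 fold change was 0.49 over the 7 genes and 0.08 over all genes. At an unadjusted p under 0.05 there were 4 of the 7, all higher, against 19.6% of all genes.

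**Figure D2:**
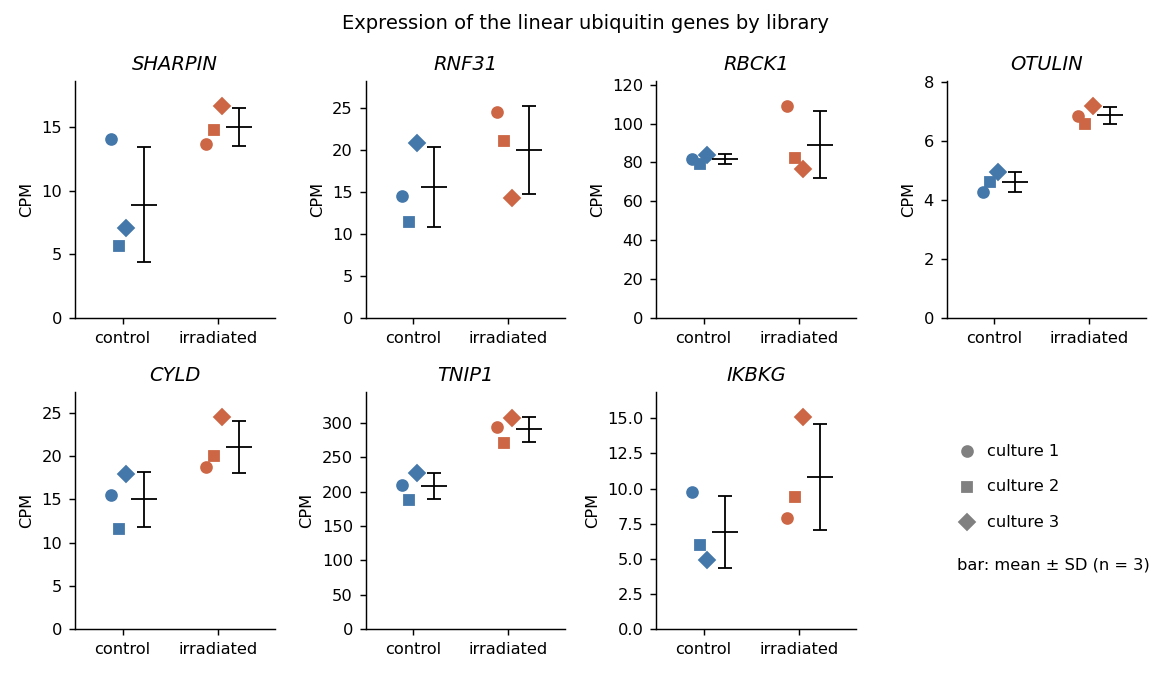
Expression of the 7 genes in CPM (vertical axis, from 0) in each control and irradiated library (points, with a symbol for each culture number) with mean and SD over 3 cultures. OTULIN, CYLD and TNIP1 show no overlap between the groups, and SHARPIN control culture 1 lies at 14.05 CPM, within the irradiated range.

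Per length of transcript, TNIP1 and RBCK1 were the most abundant. CPM per kilobase of annotated length, weighted by the counts of each model, was 98.4 ± 9.28 (SD, n = 3) in control cells for TNIP1 and 52.8 ± 1.6 for RBCK1. Of the other subunits of the ligase, RNF31 was at 7.30 ± 2.21 and SHARPIN at 6.28 ± 3.17 CPM per kilobase. IKBKG followed at 3.35 ± 1.24, CYLD at 2.88 ± 0.609 and OTULIN at 0.863 ± 0.0637. In this order the control libraries of RNF31 and SHARPIN, of SHARPIN and IKBKG and of IKBKG and CYLD overlapped, while TNIP1, RBCK1 and OTULIN did not overlap with their neighbours. In irradiated cells SHARPIN (10.6 ± 1.05) and RNF31 (9.34 ± 2.42) changed places in CPM per kilobase, with overlapping libraries. The order depends on the division by length, which lowers long transcripts, and whether it suits reads of full-length cDNA was not tested. In CPM, CYLD (control mean 15.03) was above SHARPIN (8.92) and IKBKG (6.90). RNF31 stayed above SHARPIN in CPM, with means of 15.6 and 8.92 in controls and 19.96 and 15.02 in irradiated cells. In CPM too, SHARPIN libraries overlapped with those of RNF31 in both groups and of CYLD in controls. The length of RBCK1 is set by its short models, which hold most of its counts.

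SHARPIN, on chromosome 8 from 144098633 to 144108124 on the minus strand, was higher in the irradiated mean without passing the test. It was at 14.05, 5.66 and 7.04 CPM in controls 1, 2 and 3 and at 13.6, 14.8 and 16.6 CPM in the irradiated cultures. Control 1 lay with the irradiated libraries, and the other 2 controls lay under all of them. The means were 8.92 ± 4.50 and 15.0 ± 1.5 CPM (SD, n = 3) and differed by 0.81 on the log2 scale, with a 95% interval from 0.18 to 1.43 (standard error 0.296, adjusted p = 0.0558, edgeR). These levels rest on 37 to 130 counts a library.

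The value for SHARPIN depended on single libraries and on the scaling. Without control 1 the log2 fold change was 1.23 with an adjusted p of 0.00697, and without control 2 it was 0.57 with an adjusted p of 0.209 (edgeR). Scaled by library totals it was 1.25 (adjusted p = 0.0143, edgeR), and with the trend on transcript length removed from each library it was 1.02 (adjusted p = 0.0271, edgeR).

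The 3 kept transcripts of SHARPIN differed in how far they moved. ENST00000532536 is a 533-base coding model of 3 exons at the 3′ end of the gene, and 84.8% of its bases lie in exons of the 9-exon coding model ENST00000398712. Its last exon runs unbroken through the last intron of that model. Its counts were 9, 5 and 13 in controls and 32, 30 and 39 in irradiated libraries, with no overlap between the groups in CPM. It rose from 1.56 ± 0.742 to 4.50 ± 0.348 CPM (SD, n = 3), with a log2 fold change of 1.59 and a standard error of 0.332 (adjusted p = 4.38e-05, edgeR). The call held in each of the alternatives run, with adjusted p up to 0.00918.

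ENST00000359551 is an 8-exon model of the nonsense-mediated decay class, an annotation for transcripts expected to be degraded, and lacks an exon of the 9-exon model. Its counts were 9, 6 and 10 in controls and 26, 22 and 31 in irradiated libraries. It rose from 1.49 ± 0.696 to 3.51 ± 0.330 CPM (log2 fold change 1.34, adjusted p = 0.00196, edgeR), a call lost with DESeq2 (adjusted p = 0.0573). The 9-exon model ENST00000398712, of 1765 bases, was at 9.62, 4.14 and 4.22 CPM in controls and at 5.78, 6.93 and 7.51 CPM in irradiated libraries. Control 1 was the highest of the 6 libraries, and the log2 fold change was 0.28 (adjusted p = 0.449, edgeR).

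The isoform fraction (IF) is the share of a gene's kept counts that fall on a transcript, and dIF is the irradiated mean minus the control mean. For ENST00000532536 the IF was 16.1%, 13.5% and 22.8% in controls and 31.4%, 30.3% and 30.0% in irradiated libraries. The 95% Wilson interval of these single-library shares ran from 13.8% to 35.2% in control 3 and from 22.8% to 38.4% in irradiated culture 3, and covers counting error only. The groups did not overlap, and dIF was 0.131, but the usage test across all isoforms gave an adjusted p of 0.279 (edgeR diffSpliceDGE).

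For ENST00000398712 the IF was 67.9%, 70.3% and 59.6% in controls and 43.1%, 47.5% and 46.2% in irradiated libraries. Its dIF of -0.203 was the lowest among all 67 kept transcripts of the 7 genes (adjusted p = 0.497, edgeR diffSpliceDGE). With limma's diffSplice the adjusted p was 0.0546. For ENST00000359551 the mean IF was 16.6% in controls and 23.9% in irradiated cells (dIF 0.072, adjusted p = 0.627, edgeR diffSpliceDGE). In an exact two-sided permutation test each of these 3 differences gave p = 0.1, the smallest p that 3 cultures against 3 allow.

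**Figure D3:**
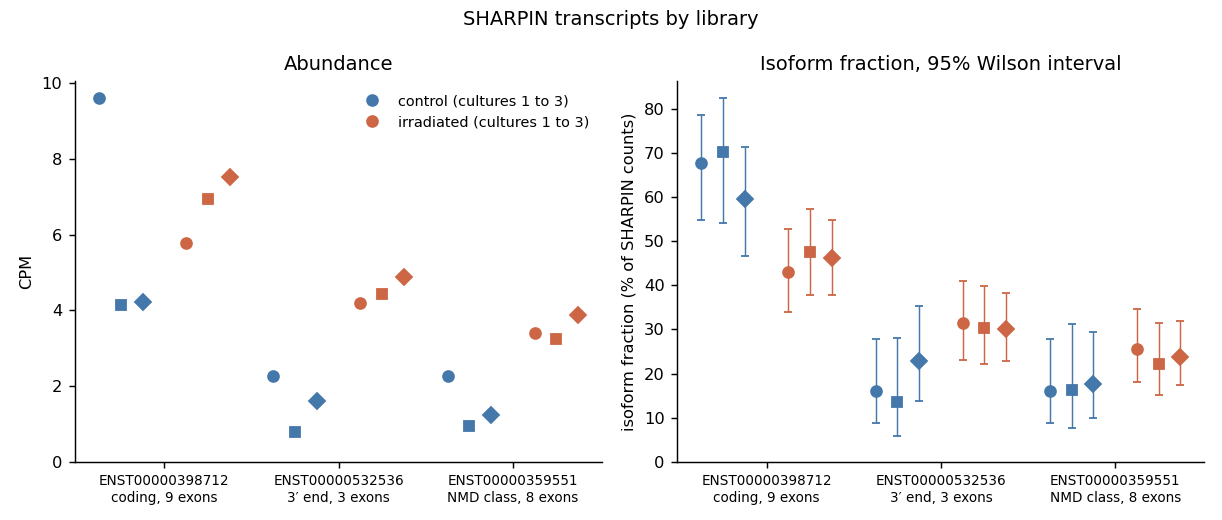
SHARPIN transcripts in CPM (left) and as isoform fraction in percent of SHARPIN counts with 95% Wilson intervals (right), for control (blue) and irradiated (orange) cultures 1 to 3 in that order. The 3-exon model ENST00000532536 lies at 30.0% to 31.4% in irradiated libraries and at 13.5% to 22.8% in controls, and the intervals of the libraries overlap in part.

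RBCK1 did not pass the test. It was at 81.8, 79.1 and 84.0 CPM in controls and at 108.8, 82.3 and 76.6 CPM in irradiated cultures 1, 2 and 3. The log2 fold change was 0.13 with a 95% interval from -0.18 to 0.43 (adjusted p = 0.55, edgeR). Irradiated culture 1 lay above the controls, culture 2 within their range and culture 3 below it. Without irradiated culture 1 the log2 fold change was -0.04.

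Most RBCK1 counts fell on 3 models that end in the first part of the gene, 20202 bases before the end of the full-length models. These are the processed transcript ENST00000400245, the coding model ENST00000475269 and the 2-exon coding model ENST00000400247. Together they held 60.7%, 70.8% and 62.6% of RBCK1 counts in controls and 61.1%, 56.5% and 64.8% in irradiated libraries. The 5 models that reach the end of the gene held 32.5%, 24.2% and 30.4% in controls and 32.3%, 35.3% and 28.9% in irradiated libraries. Grouping models by their end was chosen after their values were seen, and the shares overlapped between the groups.

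ENST00000400245 and ENST00000475269 differed by at most 2 counts in any library, so that their counts are a split of the same reads and not separate results. The full-length models such as ENST00000356286 carry the exons after the junction shown above. ENST00000356286 had 20, 27 and 44 counts in controls and 57, 41 and 39 in irradiated libraries (log2 fold change 0.30, adjusted p = 0.423, edgeR). ENST00000400247 had 28, 56 and 81 counts in controls and 125, 75 and 91 in irradiated libraries, and rose by 0.55 on the log2 scale (adjusted p = 0.0357, edgeR). This call was lost without control 1 (adjusted p = 0.186), control 2 (0.0755), irradiated culture 1 (0.387) or irradiated culture 3 (0.0549), with RLE scaling by the median ratio of counts (0.0547), without a filter (0.0838) and with DESeq2 (0.163). Its IF went from 10.4% ± 1.70 to 14.7% ± 0.955 (SD, n = 3), with an adjusted p of 0.23 (edgeR diffSpliceDGE).

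RNF31, on chromosome 14 from 24146683 to 24160661 on the plus strand, spread widely within both groups. It was at 14.5, 11.5 and 20.8 CPM in controls and at 24.5, 21.1 and 14.3 CPM in irradiated cultures. The groups overlapped, and the log2 fold change was 0.34 with a 95% interval from -0.20 to 0.88 (adjusted p = 0.341, edgeR). Of its 16 kept transcripts, 12 had a log2 fold change above 0, against 52.4% of all transcripts. With edgeR or DESeq2 0 of the 16 passed an adjusted p of 0.05. In edgeR 1 was at an unadjusted p under 0.05, against 30.5% of all transcripts. No transcript held more than 12.4% of the counts in the control mean, and the full-length coding model ENST00000324103 had 9, 9 and 16 counts in controls and 19, 12 and 12 in irradiated libraries.

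A pair of limits bears on RNF31. Models in GENCODE release 29 hold 53.7% of its counts, so that the structure of the rest is not described here. Of its 3996 exonic bases, 1732 are shared on the same strand with AL136295.5 (127 counts in all libraries together) and 147 lie opposite to PSME2 (30046 counts), and the sources used here do not give how the counting treated strand.

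Of the enzymes that cleave linear chains, OTULIN, on chromosome 5 from 14664664 to 14699711 on the plus strand, was the least abundant. It was at 4.26, 4.59 and 4.94 CPM in controls and at 6.82, 6.58 and 7.16 CPM in irradiated cultures. The groups did not overlap, and both had a small spread. The log2 fold change was 0.57 with a 95% interval from -0.06 to 1.19 (adjusted p = 0.166, edgeR), on 17 to 56 counts a library. The full-length coding model ENST00000284274 held 56.6% ± 7.48 of the counts in controls and 50.1% ± 3.07 in irradiated cells. The retained-intron model ENST00000508678, named after its values were seen, had 0 counts in every control and 3, 4 and 1 in irradiated libraries (adjusted p = 0.0901, edgeR), counts too low for a fold.

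CYLD, on chromosome 16 from 50742050 to 50801935 on the plus strand, was at 15.6, 11.6 and 17.9 CPM in controls and at 18.7, 20.04 and 24.5 CPM in irradiated cultures. Every irradiated library was above every control, by less than 1 CPM at the nearest pair. The log2 fold change was 0.49 with a 95% interval from 0.02 to 0.95 (adjusted p = 0.112, edgeR). With the trend on transcript length removed it was 0.20 for CYLD and 0.27 for OTULIN, both of which are long transcripts.

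The counts of CYLD were spread over coding models that share most exons. ENST00000427738, which ends at the end of the gene and spans 8503 bases, had 14, 23 and 36 counts in controls and 42, 38 and 53 in irradiated libraries (log2 fold change 0.58, adjusted p = 0.0972, edgeR). Its IF was 25.9% ± 3.95 in controls and 28.7% ± 1.23 in irradiated cells. Of the 8 kept transcripts of CYLD 7 had a log2 fold change above 0, against 52.4% of all transcripts. With edgeR or DESeq2 0 of the 8 passed an adjusted p of 0.05. In edgeR 1 was at an unadjusted p under 0.05, against 30.5% of all transcripts.

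TNIP1 was the member that rose. It was at 210.0, 187.6 and 226.6 CPM in controls and at 293.8, 271.3 and 306.4 CPM in irradiated cultures. The lowest irradiated library was above the highest control. The means were 208.1 ± 19.6 and 290.5 ± 17.8 CPM (SD, n = 3), a 1.40-fold rise (log2 fold change 0.48, 95% interval from 0.23 to 0.73, standard error 0.117, adjusted p = 0.00757, edgeR). It is below the limit of 1 on the log2 scale. The call was lost without irradiated culture 3 (log2 fold change 0.44, adjusted p = 0.0512), and the log2 fold change was 0.93 with scaling by library totals.

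Of the 16 kept transcripts of TNIP1, 14 had a log2 fold change above 0, against 52.4% of all transcripts. At an adjusted p under 0.05, 5 rose, against 8.54% of all transcripts. Of these 5, 4 start at the outer of the main start sites, ENST00000315050, ENST00000522100, ENST00000523338 and ENST00000522226. ENST00000523338, which also uses the far splice site shown above, had 75, 103 and 180 counts in controls and 253, 190 and 269 in irradiated libraries. It rose from 19.2 ± 2.98 to 31.6 ± 3.15 CPM (log2 fold change 0.71, adjusted p = 0.000581, edgeR), a call kept in each of the alternatives run. ENST00000522100, a short coding model of 8 exons, rose by 0.62 (adjusted p = 0.00289, edgeR), and lost the call without control 2 (adjusted p = 0.0629). ENST00000315050 (log2 fold change 0.48, adjusted p = 0.0285, edgeR) lost it without control 1 (0.102), control 2 (0.171), irradiated culture 1 (0.116) or irradiated culture 3 (0.151), with RLE scaling (0.06), without a filter (0.0656) and with DESeq2 (0.0641). ENST00000522226 (log2 fold change 0.94, adjusted p = 0.037, edgeR) lost it without those same libraries (0.0699, 0.148, 0.116 and 0.134), without a filter (0.0864) and with DESeq2 (0.182). With DESeq2 3 of the 16 passed. The counts of ENST00000315050 and ENST00000522100 differed by at most 24 in any library, so that they may not be separate results.

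The other transcript that rose, ENST00000520931, starts at the middle start with the promoter shown above (log2 fold change 0.57, adjusted p = 0.00724, edgeR), with adjusted p of 0.0913 without control 2 and 0.0822 without irradiated culture 3. The models ENST00000389378, ENST00000520695 and ENST00000521591 start there too. They had log2 fold changes of 0.34, 0.29 and 0.34 and did not pass the test (adjusted p = 0.143, 0.219 and 0.142, edgeR). The counts of ENST00000520931 differed by at most 17 in any library from those of ENST00000522100, which has the outer start. Reads may thus be split between models of both starts.

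Grouped by start, which was chosen after the values were seen, the 4 outer-start models held 32.7%, 30.0% and 36.4% of TNIP1 counts in controls and 38.5%, 36.5% and 37.7% in irradiated libraries. The 6 middle-start models held 63.9%, 65.7% and 58.7% in controls and 56.6%, 59.6% and 57.1% in irradiated libraries. Control 3 lay nearest to the irradiated shares in both groups of models. How far the same reads were split between models of both starts was not tested. The 2 models with the far splice site of the last exon held 12.9% ± 0.807 of the counts in controls and 13.2% ± 0.658 in irradiated cells, so that these shares overlapped.

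Those 2 far-site models moved in opposite directions in IF. ENST00000518977, with the middle start, had 28, 66 and 49 counts in controls and 53, 45 and 35 in irradiated libraries. Its IF fell from 3.8% ± 1.41 to 2.12% ± 0.571 (dIF -0.017, adjusted p = 0.0104, edgeR diffSpliceDGE). It was the only one of the 67 transcripts past the adjusted p for usage, which 4.52% of all isoforms passed, and its dIF is far under the limit of 0.1. The call was lost without control 2 (adjusted p = 0.522) and without irradiated culture 3 (adjusted p = 0.352). ENST00000523338, with the outer start, had an IF of 9.06% ± 0.712 in controls and 11.1% ± 0.539 in irradiated cells (adjusted p = 0.549, edgeR diffSpliceDGE).

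IKBKG, on chromosome X from 154541199 to 154565046 on the plus strand, was at 9.78, 5.97 and 4.94 CPM in controls and at 7.89, 9.42 and 15.1 CPM in irradiated cultures. The groups overlapped, with control 1 above 2 of the irradiated libraries. The log2 fold change was 0.69 with a 95% interval from 0.01 to 1.38 (adjusted p = 0.123, edgeR), on 39 to 118 counts a library. Without control 1 the adjusted p was 0.0496, and without irradiated culture 3 the log2 fold change was 0.36. A near-identical partial copy of IKBKG lies nearby on the chromosome, so that its reads may be split between the copies.

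At an adjusted p under 0.05, 2 of the 7 kept transcripts of IKBKG rose, against 8.54% of all transcripts. Both are coding models of 10 exons, ENST00000618670, with a first exon at 154542244, and ENST00000611071, with a first exon at 154547847. The former had 10, 7 and 7 counts in controls and 22, 16 and 33 in irradiated libraries (log2 fold change 1.23, adjusted p = 0.00707, edgeR). The latter had 9, 9 and 7 counts in controls and the same counts as the former in irradiated libraries (log2 fold change 1.18, adjusted p = 0.00991, edgeR). Their counts differed by at most 2 in any library, so they are not separate results. Neither passed with DESeq2 (adjusted p = 0.135 and 0.144), without control 3 (0.0875 and 0.12) or without irradiated culture 3 (0.13 and 0.155). The coding model ENST00000594239 had 6, 9 and 8 counts in controls and 5, 7 and 13 in irradiated libraries, and its IF was 19.5% ± 3.87 in controls and 10.2% ± 1.5 in irradiated cells (adjusted p = 0.607, edgeR diffSpliceDGE).

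Over the 67 kept transcripts of the 7 genes, 55 had a log2 fold change above 0, against 52.4% of all transcripts. Both limits were passed by 4, all higher, 2 of SHARPIN and the pair of IKBKG, against 3.36% of all transcripts called higher and 7.69% called in either direction. At an adjusted p under 0.05 there were 10 higher, against 8.54% of all transcripts, and 0 lower, against 10.7%. In usage, 0 of the 67 passed both limits, against 0.41% of all isoforms, with 5 at an unadjusted p under 0.05, against 13.6%, and 0 past both limits with limma's diffSplice. An absolute dIF of at least 0.1 was reached by 2, both of SHARPIN, against 5.12% of all isoforms.

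**Figure D4:**
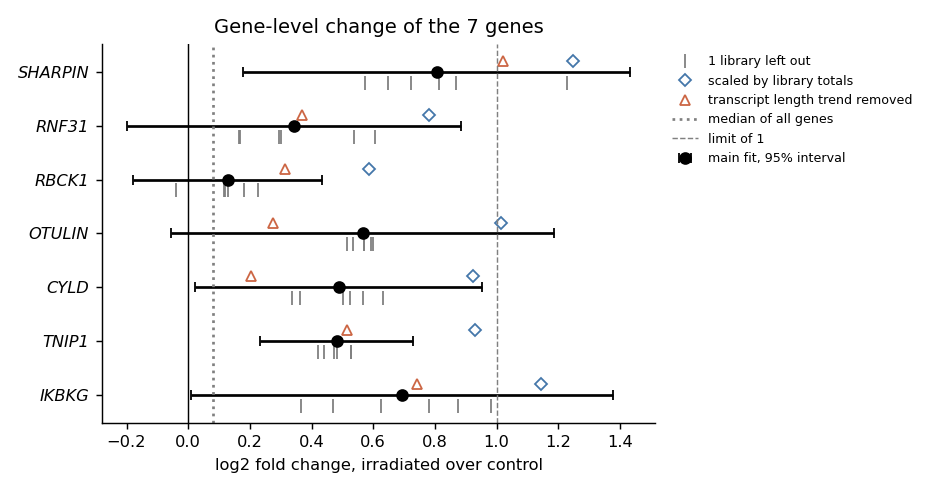
Gene-level log2 fold change (horizontal axis, irradiated over control) of the 7 genes with 95% intervals (black), with values without each library in turn (grey ticks), scaled by library totals (diamonds) and with the transcript length trend removed (triangles), beside the median of all genes (dotted) and the limit of 1 (dashed). TNIP1 has the narrowest interval, from 0.23 to 0.73, and SHARPIN the highest value at 0.81.

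Across the 6 libraries SHARPIN was compared with 6170 genes of at least 10 CPM on the log2(CPM + 1) scale. The genes with the highest Pearson's r were SLC30A6 (0.995), a zinc transporter, C6orf89 (0.987), MBD1 (0.986), which binds methylated DNA, RNF111 (0.985), a ubiquitin ligase of another family, and ENSG00000291067 (0.982). They share with SHARPIN a high control 1 and low controls 2 and 3, and r was above 0.9 in 96 genes. Among the other members r with SHARPIN was 0.862 for IKBKG, 0.76 for TNIP1, 0.752 for CYLD, 0.625 for OTULIN, 0.304 for RNF31 and 0.151 for RBCK1. These are descriptions over 6 libraries of 2 groups that share depth and normalization.

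Around these genes, 102 genes of the pathway in 8 lists were followed, of which 79 were tested. Of the 79, 14 were higher and 8 lower at an adjusted p under 0.05, beside 11.6% and 14.1% of all genes. Of 7 genes of the TNF receptor complex, to which LUBAC is recruited, 1 was higher, TNFRSF1A (log2 fold change 0.60, adjusted p = 0.031, edgeR), the receptor itself. BIRC2 (0.36), a ligase that recruits LUBAC, TRADD (0.79), an adaptor, and RIPK1 (0.48) did not pass. Of 13 adaptors and ligases of other receptors that recruit LUBAC, 2 were higher, IRAK1 (0.58) and XIAP (0.87), and MALT1 (0.71) and TRAF6 (-0.79) did not pass. Left-out libraries ended the call of TNFRSF1A (control 2, irradiated cultures 1 and 3, adjusted p up to 0.144), whose groups overlapped, and of XIAP (controls 1 and 2, irradiated cultures 2 and 3, up to 0.135). XIAP also lost it with the length trend removed (0.168). The list medians were 0.36 and 0.24.

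The ubiquitin genes and the enzymes that feed the chains were the list with most lower calls. Of 13 tested, 7 were lower and 1 higher, with a median log2 fold change of -0.41, and with scaling by library totals 2 were lower and 5 higher, with a median of 0.04. RPS27A, which encodes ubiquitin fused to a ribosomal protein, fell by 1.18 on the log2 scale, with an adjusted p of 0.000429 in edgeR, and was lower under library totals too (-0.73). UBE2N (-0.73) and UBE2V2 (-0.68), which build the other chains that CYLD cleaves, passed with TMM and not with library totals. UBE2L3, the conjugating enzyme with which RNF31 works, is given for its role: its CPM was 453.5, 515.1 and 379.3 in controls and 282.3, 331.1 and 322.4 in irradiated cultures (log2 fold change -0.53, adjusted p = 0.00797, edgeR). With library totals UBE2L3 was at -0.07 (adjusted p = 0.526).

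Downstream of the chains, 0 of 10 kinase genes and ubiquitin readers of the IKK, TAK1 and TBK1 complexes passed an adjusted p of 0.05 with edgeR, where TANK (-0.49, adjusted p = 0.0506), TAB3 (0.61), TBK1 (0.34) and IKBKB (0.50) had the smallest adjusted p. At an unadjusted p under 0.05 there was 1 of the 10, TANK, against 38.9% of all genes. With DESeq2 1 of the 10 passed an adjusted p of 0.05, and 4 were higher with library totals. Of 14 other ubiquitin binders, editors and deubiquitinases, 2 were higher, TNIP2 (0.93), a relative of TNIP1, and VCP (0.43), while TNFAIP3 (0.53, adjusted p = 0.0512) and ITCH (0.40) did not pass. Left-out libraries ended the call of TNIP2 (controls 1 and 2, irradiated culture 1, adjusted p up to 0.0946) and of VCP (control 2, irradiated cultures 1 and 3, up to 0.128). TNIP2 was at 5.52, 5.2 and 10.01 CPM in controls and at 15.0, 13.2 and 12.3 CPM in irradiated cultures. Among genes of the cell death complex that forms when linear chains are lacking, CFLAR (-0.16), MLKL (0.16) and CASP8 (-0.06) did not pass.

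NF-kappaB factors and inhibitors had the highest list median, 0.77, with 6 of 9 higher and 0 lower, and 5 of 9 higher with the length trend removed. NFKB2 (log2 fold change 1.45), NFKBIA (0.77), NFKB1 (1.06) and RELA (0.55) had the smallest adjusted p (0.000586, 0.00203, 0.00224 and 0.0158, edgeR). Of 15 NF-kappaB target genes listed, CSF2, ICAM1, LIF, PTGS2, TNF and VCAM1 were not tested. Of the 9 tested, 1 was higher, IRF1 (0.85), and 1 lower, CXCL1 (-0.50), with a median of -0.33 that was 0.12 with library totals. With library totals 3 were higher and 0 lower, and CXCL1 was at -0.03 (adjusted p = 0.847, edgeR). With the length trend removed CXCL1 was at -0.20 (adjusted p = 0.302) and IRF1 at 0.65 (adjusted p = 0.0634, edgeR). Left-out libraries ended the call of CXCL1 (controls 1 and 2, irradiated cultures 1 and 3, adjusted p up to 0.13), of IRF1 (controls 1 and 2, irradiated culture 1, up to 0.107) and of RELA (control 2, irradiated culture 1, up to 0.0926). CXCL8 (-0.33) and SOD2 (0.24) did not pass.

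**Figure D5:**
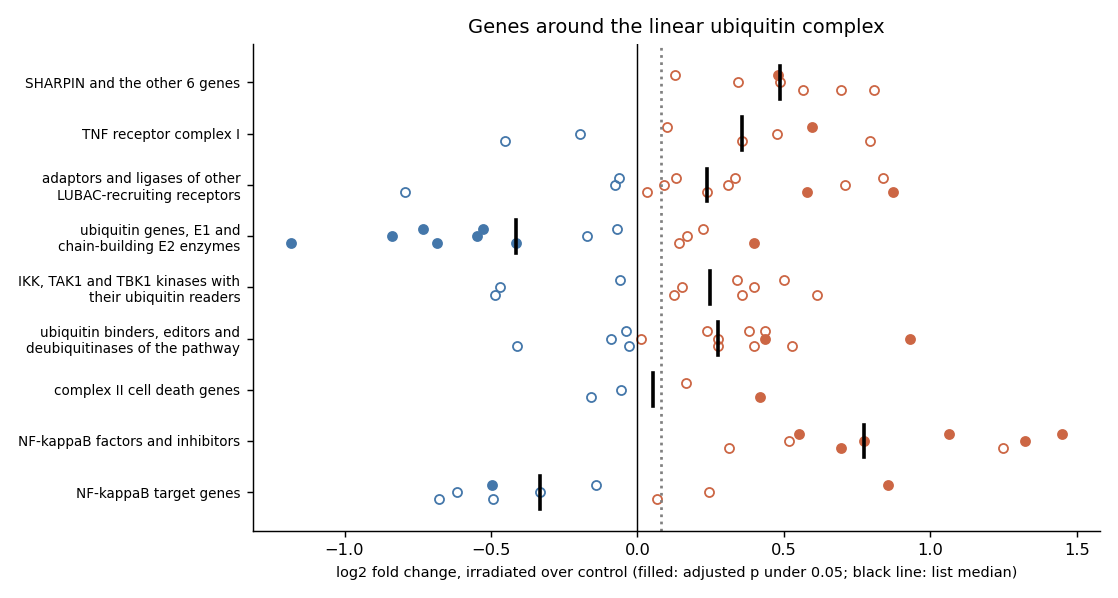
Log2 fold change (horizontal axis, irradiated over control) of each tested gene of the 8 pathway lists, with SHARPIN and the other 6 genes in the top row (filled points have an adjusted p under 0.05, black lines are list medians and the dotted line is the median of all genes). The 9 NF-kappaB factors and inhibitors all lie above 0, and 7 of the 13 ubiquitin genes and enzymes are filled below 0.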

How the data were processed

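The deposited table holds estimated counts per transcript and library, whole numbers that the authors made by aligning reads to GRCh38 with minimap2 and quantifying with Salmon (from the submitters' processing notes, where versions, annotation release and strand handling are not stated). The library kit carries molecular identifiers, and no step that collapses reads by them is named. The Wilson intervals of single-library shares cover counting error only, while the edgeR intervals also hold the spread between cultures. The filter asked for 10 or more summed counts per gene in 3 or more libraries, 3 or more counts per transcript in 1 or more libraries and 2 or more such transcripts per gene. That kept 95.63% to 96.45% of each library.

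The quasi-likelihood test of edgeR 4.0.16 (TMM, robust glmQLFit) in R 4.3.3 was used for genes and for transcripts, and diffSpliceDGE for isoform usage, with p-values adjusted by Benjamini-Hochberg over all features. TMM factors were 0.793 to 0.928 in controls and 1.09 to 1.24 in irradiated libraries, so that the median gene moves from 0.08 to 0.53 on the log2 scale with library totals. Isoform fractions use counts without division by length. Replicates were independent cultures. Alternatives used DESeq2 1.42.0, limma 3.58.1, other scalings and filters, a length offset, a replicate block and each library left out.

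All 7 members, transcripts with a mean IF of at least 10% in either group or past a limit, the 4 genes of smallest adjusted p in each list and the 5 genes most like SHARPIN were named. Members and lists were chosen with earlier results of these data known, and others are named with their reason. Some genes that the rule names are not reported here. Structures and sequences came from GENCODE release 29 (53 of 67 kept member transcripts, 95.2% of member counts) and RefSeq. Python 3.11.15, pandas 2.3.3, SciPy 1.17.1 and matplotlib 3.10.9 were used.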

Additional observations from a re-analysis of the deposited data

How the results depend on the processing

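The 3-exon transcript of SHARPIN kept its call in abundance under each alternative run, and 0 of the members' isoforms switched under any of the 10 alternatives for usage. Among those 10, dividing counts by length changed the fractions alone and kept the p-values of the main usage test. It was thus not a separate test. Of the 7 genes, 1 passed an adjusted p of 0.05 in the analysis above, 6 with library totals, 2 without a filter, 2 with the length offset, and 0 (without irradiated culture 3) to 3 (without control 1) when a library was left out. The log2 fold change of SHARPIN was 1.25 with library totals, 0.82 without a filter and 1.02 with the length offset, all past an adjusted p of 0.05, and 0.57 (without control 2) to 1.23 (without control 1) with a library left out, where that of TNIP1 was 0.42 to 0.53. Of the members' transcripts 4 passed both limits, 16 with library totals, 1 with DESeq2 and 2 (without irradiated culture 3) to 6 with a library left out. Of the pathway genes 22 passed, 42 with library totals and 11 (without irradiated culture 1) to 27 with a library left out, with 12 without control 2 and 14 without irradiated culture 3.

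Over all genes 634 were called, 1949 with library totals, 973 without a filter and 387 (without control 2) to 1215 (without control 3) with a library left out. Over all transcripts 5758 were called, 13185 with library totals, 2963 with DESeq2 and 3085 to 9638 with the same libraries left out. Over all isoforms 302 switched, 913 with limma and 109 to 771 with the same libraries left out. With counts divided by length 543 passed both limits, on new fractions and unchanged p-values. The cause of these differences was not tested.

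Of the other values, for single genes, transcripts and lists, 998 kept direction and side of the limit, 64 lost a call, 38 gained one and 35 changed sign. In the values that follow signs turned where no call stood. With library totals the log2 fold change was 0.35 for RBCK1 ENST00000400245 and ENST00000475269, 0.43 for RNF31 ENST00000559533, 0.40 for RNF31 ENST00000699884, 0.31 for IKBKG ENST00000594239, 0.34 for IKBKG ENST00000692948, 0.12 for TNIP1 ENST00000518977, 0.30 for CFLAR, 0.40 for CASP8 and 0.12 for CXCL8. With the length offset it was 0.029 for CASP8 and -0.088 for SOD2, with DESeq2 -0.0051 for RNF31 ENST00000324103, and dIF was -0.108 for OTULIN ENST00000503023 with counts divided by length. With a library left out the ranges were -0.041 to 0.23 for RBCK1, -0.19 to 0.20 for RNF31 ENST00000324103, -0.28 to 0.20 for RNF31 ENST00000559533, -0.67 to 0.14 for RNF31 ENST00000699884, -0.59 to 0.087 for IKBKG ENST00000594239, -0.73 to 0.28 for IKBKG ENST00000692948, -0.29 to 0.48 for IKBKG ENST00000617207, -0.11 to 0.52 for MLKL, -0.29 to 0.18 for CASP8 and, in dIF, -0.0019 to 0.028 for OTULIN ENST00000697367.

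With the replicate number as a block 2 of the 7 genes passed, SHARPIN at 0.85 (adjusted p = 0.0302, edgeR), and RNF31 ENST00000324103 was at -0.016. Same-numbered cultures had correlations of their deviations of -0.03, 0.279 and 0.101 over 6171 genes. Differently numbered cultures had -0.325 to 0.248. With 3 cultures a group, these correlations cannot show whether same-numbered cultures were paired.

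SHARPIN, OTULIN and IKBKG rest on 17 to 130 counts a library, and their intervals hold both counting error and the spread between cultures.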
